A study of Mus musculus with 5 samples.

Results

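Genes that mark the cells lining blood vessels were read in RNA of sorted dermal group 2 innate lymphoid cells (dILC2s) from the skin of wild-type (WT) and Rag1-deficient (*Rag1*-/-) mice. The 10 genes were *Pecam1*, *Cdh5*, *Kdr*, *Flt1*, *Tek*, *Tie1*, *Eng*, *Emcn*, *Vwf* and *Egfl7*, chosen by name as known endothelial cell genes out of 47729 genes in the count table. All 10 were found by symbol and all 10 were among the 19011 genes tested. Each of the 10 was detected in every library, with 71 to 6029 counts per library, although the gate described for dILC2s takes viable CD45+CD90hi cells without CD2/CD3 signal and endothelial cells lack CD45. WT pool 5 had the highest level of all 10 genes, as of 23.1% of all genes tested, and *Rag1*-/- pool 2 had the lowest level of 9 of them, as of 31.5% of all genes tested. None of the 10 passed the thresholds for a difference between genotypes with edgeR, and *Kdr* alone passed as lower with DESeq2.

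The WT group held 3 libraries (pools 5, 6 and 13) of dILC2s of female C57BL/6 mice, each pool from 10 mice, and the group labelled *Rag1*-/- held 2 libraries (pools 2 and 7) of dILC2s of RAG1-deficient mice on the same background, each pool from 9 mice. All mice were 8 to 13 weeks old, lived under specific pathogen-free conditions, and gave cells that were sequenced fresh without stimulation. The deficiency is in the whole animal, so that these mice lack mature T and B cells in all tissues. The deposited labels count 16 *Rag1*-/- mice where the pooling described in the methods gives 18, and they name the cells of the *Rag1*-/- libraries innate lymphoid cells type 3 and those of the WT libraries innate lymphoid cells type 2.

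Endothelial cells respond to vascular endothelial growth factor (VEGF) through the receptor tyrosine kinases VEGFR2 and VEGFR1, and to angiopoietins through TIE2 and its partner TIE1, and they hold to each other through junction proteins such as VE-cadherin and CD31. Endoglin assists signalling of the TGF-beta family, and von Willebrand factor is stored by endothelial cells and released for haemostasis. In the dermis these cells line arterioles, capillaries, venules and lymphatic vessels. Some of the 10 genes are also used elsewhere, *Pecam1* by many leukocytes and platelets, *Vwf* by megakaryocytes and *Eng* by macrophages and other stromal cells.

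The libraries held 32939428 to 39477243 counts on genes in WT, and 8050562 (pool 2) and 38922750 (pool 7) in *Rag1*-/-, so that pool 2 was the shallowest. There, 3 counts, taken as the smallest level the depth can show, correspond to 0.373 CPM, the counts of a gene scaled to a common total of counts on genes, and no member came near it. *Rag1* itself was counted 4, 0 and 5 times in the WT libraries (pools 5, 6, 13) and 5 and 48 times in pools 2 and 7 labelled *Rag1*-/-, with a log2 fold change of 3.53 (adjusted p = 0.0866, edgeR's quasi-likelihood test). It was not lower where the labels say it is deleted, and a count over the whole gene cannot tell whether the reads came from the deleted part. The genotypes given here follow the labels throughout. The summed level of 20 genes expressed by leukocytes in general was 893 to 2123 CPM in the WT libraries and 6814 and 5885 CPM in the libraries labelled *Rag1*-/-. That of 12 keratinocyte genes was 25081 to 36486 CPM in WT against 5883 and 14921 CPM, and neither list overlapped between the groups.

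For *Kdr*, *Flt1*, *Eng* and *Tek*, the bases just before the RefSeq start of the gene are shown on GRCm38.p6. In the first 3 of these, both *Rag1*-/- pools lay below every WT pool, as in 24.0% of all genes tested. *Tek* was the member that left the order shared by the others. Capitals mark a core motif of ETS factors, which are transcription factors of the endothelial lineage, searched as AGGAAG and CGGAAG with the opposite strands CTTCCT and CTTCCG.
Kdr (chr5:75978459-75978705, minus strand): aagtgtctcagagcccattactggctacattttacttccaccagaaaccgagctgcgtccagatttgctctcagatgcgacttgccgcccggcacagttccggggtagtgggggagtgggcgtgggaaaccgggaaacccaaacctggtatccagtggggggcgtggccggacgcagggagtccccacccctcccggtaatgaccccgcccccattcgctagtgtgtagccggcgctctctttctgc
Flt1 (chr5:147726012-147726261, minus strand): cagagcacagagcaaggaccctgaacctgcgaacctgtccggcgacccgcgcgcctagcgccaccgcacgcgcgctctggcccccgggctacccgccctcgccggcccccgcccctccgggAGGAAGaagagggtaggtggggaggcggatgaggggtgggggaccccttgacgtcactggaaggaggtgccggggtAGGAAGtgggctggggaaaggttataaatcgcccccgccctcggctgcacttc
Eng (chr2:32646345-32646594, plus strand): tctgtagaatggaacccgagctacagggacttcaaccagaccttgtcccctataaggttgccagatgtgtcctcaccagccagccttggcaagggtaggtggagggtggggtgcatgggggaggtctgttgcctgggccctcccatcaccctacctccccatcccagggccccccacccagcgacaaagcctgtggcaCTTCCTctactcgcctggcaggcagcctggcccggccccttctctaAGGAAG
Tek (chr4:94739039-94739288, plus strand): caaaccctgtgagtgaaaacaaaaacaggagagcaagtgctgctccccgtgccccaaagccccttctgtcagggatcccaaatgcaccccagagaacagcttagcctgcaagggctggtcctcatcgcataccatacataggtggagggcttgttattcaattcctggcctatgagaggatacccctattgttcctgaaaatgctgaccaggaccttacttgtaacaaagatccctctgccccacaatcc
*Flt1* and *Eng* held 2 matches each, and *Kdr* and *Tek* held none of these letters in the window. RefSeq windows were found for 7 of the 10 members, with 3 windows for *Egfl7*, and 6 of the 9 windows held a match in 250 bases. Of 32851 such windows over all genes, 39.2% held a match. The letters TATAAA or TTTATA were in the window of *Flt1* alone among the 9, and in 12.4% of all windows. These matches describe the letters only.

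*Kdr* (chromosome 5 of GRCm38, 75932827 to 75978458) encodes VEGFR2, the main signalling receptor for VEGF-A. It had 53.2, 30.5 and 42.1 CPM in WT pools 5, 6 and 13, and 15.2 and 23.3 CPM in pools 2 and 7 labelled *Rag1*-/-. Both *Rag1*-/- pools lay below every WT pool. Mean levels were 41.9 ± 11.3 CPM for the 3 WT pools and 19.2 ± 5.73 CPM for the 2 *Rag1*-/- pools (± SD). The log2 fold change of *Rag1*-/- over WT was -1.07 ± 0.31 (SE, 95% interval -1.81 to -0.33), and the adjusted p = 0.0877 from the edgeR fit over all genes tested was the smallest of the 10. A call needed an adjusted p-value below 0.05 together with a change of more than 1 in log2 units, which are the cutoffs of the study, and *Kdr* missed the former. With DESeq2, the tool of the study, *Kdr* passed as lower (log2 fold change -1.11, adjusted p = 0.016).

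*Flt1* (chromosome 5, 147561604 to 147726011) encodes VEGFR1, which binds VEGF-A and placental growth factor and also has a soluble decoy form. Its levels were 102, 56.8 and 47.5 CPM in WT pools 5, 6 and 13, and 20.99 and 43.2 CPM in *Rag1*-/- pools 2 and 7. Again both *Rag1*-/- pools were the lowest, with pool 7 just under WT pool 13. The log2 fold change was -1.04 ± 0.44 (SE, 95% interval -2.07 to -0.02, adjusted p = 0.183, edgeR), and the adjusted p-value was 0.0745 with DESeq2.

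The groups overlapped for both angiopoietin receptors. *Tek* (chromosome 4, 94739289 to 94874976), which encodes TIE2, had 19.4, 10.2 and 15.8 CPM in WT pools 5, 6 and 13, and 11.2 and 10.2 CPM in *Rag1*-/- pools 2 and 7. It was the only member whose lowest value was in pool 7 and whose pool 2 lay within the WT range, and the values of WT pool 6 and *Rag1*-/- pool 7 were nearly equal. Its log2 fold change was -0.47 (95% interval -1.21 to 0.27, adjusted p = 0.39, edgeR). *Tie1* (chromosome 4, 118471191 to 118490061), an orphan receptor that forms complexes with TIE2, had 61.0, 33.7 and 41.5 CPM in WT and 16.1 and 36.7 CPM in *Rag1*-/- pools 2 and 7. Pool 2 was far below the WT pools and pool 7 within them, and the log2 fold change was -0.72 (95% interval -1.67 to 0.24, adjusted p = 0.313, edgeR).

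*Eng* (chromosome 2, 32646595 to 32682669) encodes endoglin, a co-receptor of the TGF-beta family. It had 111, 67.6 and 69.0 CPM in WT pools 5, 6 and 13, and 45.0 and 60.4 CPM in *Rag1*-/- pools 2 and 7. The groups did not overlap, by a small margin between pool 7 and WT pool 6. The log2 fold change was -0.61 ± 0.29 (SE, 95% interval -1.29 to 0.08, adjusted p = 0.237, edgeR). Its exons share 1.51% of their bases with the neighbouring *Fpgs*.

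Among the surface and junction genes, *Pecam1* (chromosome 11, 106654217 to 106750628), which encodes CD31, had the highest counts. It had 155, 91.9 and 102 CPM in WT pools 5, 6 and 13, and 50.6 and 114 CPM in *Rag1*-/- pools 2 and 7. Pool 7 was above both WT pools 6 and 13. *Cdh5* (chromosome 8, 104101625 to 104144502), which encodes VE-cadherin, had 113, 70.1 and 66.2 CPM in WT and 22.9 and 69.4 CPM in *Rag1*-/-. Here the *Rag1*-/- pools stood 3.04 times apart, the widest gap between them among the members. *Emcn* (chromosome 3, 137341067 to 137432185), which encodes the sialomucin endomucin of capillaries and veins, had 22.5, 13.1 and 17.9 CPM in WT and 8.82 and 17.0 CPM in *Rag1*-/-. For these 3 genes pool 7 was within the WT range, and the log2 fold changes were -0.44, -0.79 and -0.40, with adjusted p-values of 0.532, 0.352 and 0.541 (edgeR).

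The secreted products gave the same picture. *Vwf* (chromosome 6, 125546774 to 125686679) had 138, 75.9 and 83.2 CPM in WT pools 5, 6 and 13, and 37.9 and 91.7 CPM in *Rag1*-/- pools 2 and 7. Pool 7 was above WT pools 6 and 13. *Egfl7* (chromosome 2, 26580014 to 26593120), which encodes a matrix protein of endothelial cells, had 17.6, 12.5 and 13.1 CPM in WT and 9.32 and 13.4 CPM in *Rag1*-/-. The log2 fold changes were -0.56 and -0.29, with adjusted p-values of 0.465 and 0.578 (edgeR). Of the exon bases of *Egfl7*, 11.2% are shared with *Agpat2*, *Gm20532* or the microRNA genes *Mir126a* and *Mir126b*, so that its count is less certain. *Gm20532* and both microRNA genes were listed with 0 counts in all 5 libraries.

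**Figure D1:**
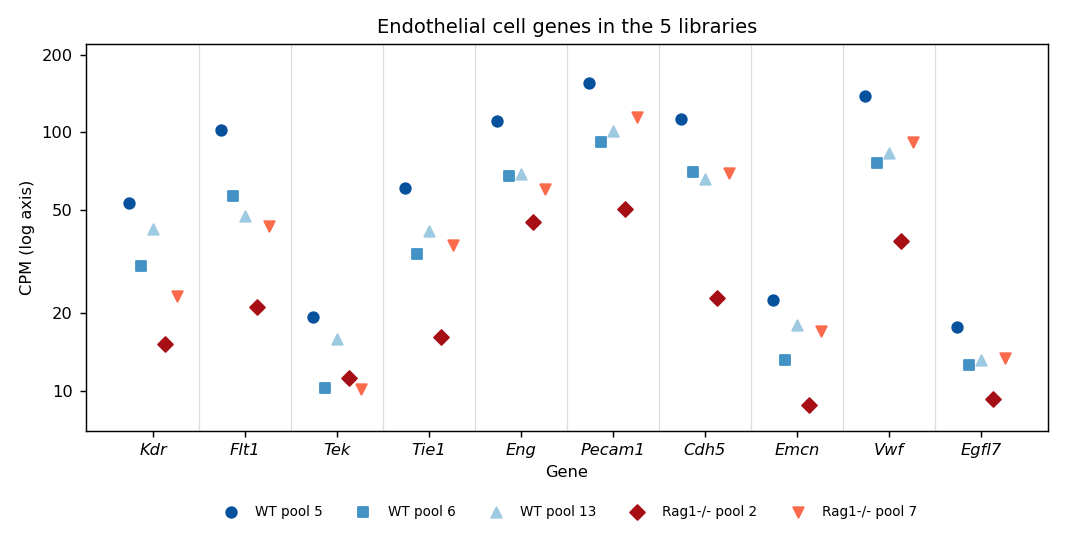
Level of each of the 10 endothelial cell genes in CPM (log axis), with 1 point per library, blue for the 3 WT pools and red for the 2 pools labelled *Rag1*-/-. WT pool 5 is the highest point for all 10 genes and *Rag1*-/- pool 2 the lowest for all but *Tek*, while *Rag1*-/- pool 7 lies among the WT pools for 6 genes.

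Over the 10 genes, none was called lower and none higher in *Rag1*-/- with edgeR, whereas 2.16% of all genes tested were called lower and 3.57% higher. The smallest unadjusted p-value was 0.0108, and 2 members, *Kdr* and *Flt1*, had an unadjusted p-value under 0.05 with a lower level, as had 12.3% of all genes tested. With DESeq2, 1 member (*Kdr*) was called lower and none higher, against 7.65% and 7.29% of the genes given an adjusted p-value. All 10 log2 fold changes were below 0, as were 48.6% of those of all genes tested, and their median was -0.58 against 0.02 over all genes. The 95% intervals included 0 for 8 of 10 and included -1 for 9 of 10, and none reached 1. Both *Rag1*-/- pools were below every WT pool for 3 members (*Kdr*, *Flt1* and *Eng*) and above for none, where 24.0% and 21.9% of all genes tested had such groups. With 3 libraries against 2 there are 10 splits, and permuting the libraries exactly cannot give a single gene a one-sided p below 0.1, so that the p-values given here draw on a spread estimated over many genes.

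The size of the difference depended on which library was in the fit. The summed level of the 10 genes was 793, 462 and 498 CPM in WT pools 5, 6 and 13, and 238 and 479 CPM in *Rag1*-/- pools 2 and 7. Mean sums were 585 ± 182 CPM for WT and 359 ± 171 CPM for *Rag1*-/- (± SD over 3 and 2 pools), so that the ratio of *Rag1*-/- to WT was 0.614 and the groups overlapped, since pool 7 lay above WT pool 6. The members took 0.0793%, 0.0462% and 0.0498% of all counts in WT and 0.0238% and 0.0479% in *Rag1*-/-. Without pool 2 the median log2 fold change of the members became -0.21, and *Pecam1* (0.05) and *Emcn* (0.004) changed sign. Without pool 7 it became -1.36, and *Cdh5* (log2 fold change -1.92, adjusted p = 0.0345) and *Kdr* (-1.53, adjusted p = 0.0491) were called lower with edgeR, a fit in which the lone *Rag1*-/- library is assumed to vary like the WT libraries and in which 7.98% of all genes tested were called lower. Without WT pool 5 the median was -0.30. In bulk RNA, fewer endothelial cells in a pool and less of these transcripts per cell cannot be told apart.

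Libraries of the same genotype differed in most of the 10 genes at once. WT pool 5 was above WT pool 6 by 1.4 to 1.9 times for each of the 10, and *Rag1*-/- pool 7 was above pool 2 by 1.34 to 3.04 times for 9 of the 10, with *Tek* at 0.91. Between WT pools 6 and 13 the members were mixed, with *Cdh5* and *Flt1* higher in pool 6 and the other 8 higher in pool 13. WT pool 5 was the highest library and *Rag1*-/- pool 2 the lowest for 9 members, an order shared by 13.6% of all genes tested. *Rag1*-/- pool 7 lay within the WT range for 6 members, as for 27.8% of all genes tested. On centred log2 CPM, where each gene's mean over the 5 libraries is set to 0, the mean of the members was 0.72, -0.02 and 0.13 in WT pools 5, 6 and 13 and -0.88 and 0.04 in *Rag1*-/- pools 2 and 7. *Tie1* (root mean square difference 0.14 log2 units) and *Pecam1* (0.14) were closest to the mean of the other members, and *Tek* (0.41) and *Cdh5* (0.32) farthest. The pair most alike was *Pecam1* and *Vwf* (0.079).

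Among 15020 other genes with a mean of at least 1 CPM, the one closest to the members' mean profile was *Dll4*, a Notch ligand of arterial endothelium (root mean square difference 0.027 log2 units over the 5 libraries). It had 13.9, 8.23 and 9.29 CPM in WT pools 5, 6 and 13 and 4.72 and 8.17 CPM in *Rag1*-/- pools 2 and 7. The next were *Cdc42ep5* (0.035), *Ndufa4l2* (0.065), *Arrdc4* (0.066) and *Gpr176* (0.087). Likeness over 5 libraries that differ in depth and make-up is a description of these libraries only.

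Per kilobase of exon (bases of all GENCODE M21 exons of a gene on the same build), the members fell into levels. In WT, *Eng* had 20.4 ± 6.11 CPM per kb, *Cdh5* 19.8 ± 6.15 and *Pecam1* 18.7 ± 5.49 (SD, n = 3 for each). The gaps between these 3 means were smaller than the SD between pools, which does not measure a difference within a library. *Eng* was above *Cdh5* and *Pecam1* in each WT pool, with *Eng* and *Cdh5* both at 16.7 CPM per kb in pool 6. In *Rag1*-/- pool 7 *Eng* was below both. *Tie1* followed at 9.24 ± 2.85 CPM per kb, below *Pecam1* in all 5 libraries. *Vwf* at 6.17 ± 2.11 CPM per kb was below *Tie1* in all 5 libraries, and the gap of the WT means (3.07) exceeded the SD of either. From *Vwf* downward the gaps between the WT means of neighbours were also smaller than the SD between pools. Even so, *Vwf* was above *Flt1* and *Egfl7* above *Emcn* in all 5 libraries. The WT means were *Flt1* at 5.10 ± 2.17, *Kdr* at 4.64 ± 1.26, *Egfl7* at 4.02 ± 0.766, *Emcn* at 3.30 ± 0.87 and *Tek* at 3.21 ± 0.98 CPM per kb (SD, n = 3 for each). In *Rag1*-/- the means ran from 2.13 (*Kdr*) to 13.2 CPM per kb (*Pecam1*). A length summed over all annotated exons understates the level of a gene with many alternative exons.

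Vessel growth factors were among the few vascular genes with a call. In a list of 16 genes of the VEGF and angiopoietin pathways, 2 were called higher, none lower, and the median log2 fold change was -0.21. *Vegfa*, the main ligand of VEGFR2 and a product of many cell types, had 78.7, 97.6 and 108 CPM in WT pools 5, 6 and 13, and 266 and 153 CPM in *Rag1*-/- pools 2 and 7. Both *Rag1*-/- pools were above every WT pool, and it rose by 1.17 ± 0.27 log2 units (SE, adjusted p = 0.0492, edgeR). This call was lost with RLE scaling (adjusted p = 0.0514) and with library size alone (0.0551). *Pdgfb*, the ligand by which endothelial cells recruit pericytes and also a product of leukocytes, had 42.4, 51.5 and 38.1 CPM in WT and 112 and 99.0 CPM in *Rag1*-/-, and rose by 1.29 ± 0.20 log2 units (SE, adjusted p = 0.0306, edgeR). *Vegfb* was at 0.36 (adjusted p = 0.492). The other 13 genes had no call, and their log2 fold changes ran from -0.85 (*Bmpr2*) to 0.68 (*Aplnr*, the apelin receptor). *Bmpr2*, named with *Aplnr* after the values were seen and a receptor of the family that endoglin assists, had an adjusted p-value of 0.0483 with a log2 fold change of -0.85, short of the limit on the fold.

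**Figure D2:**
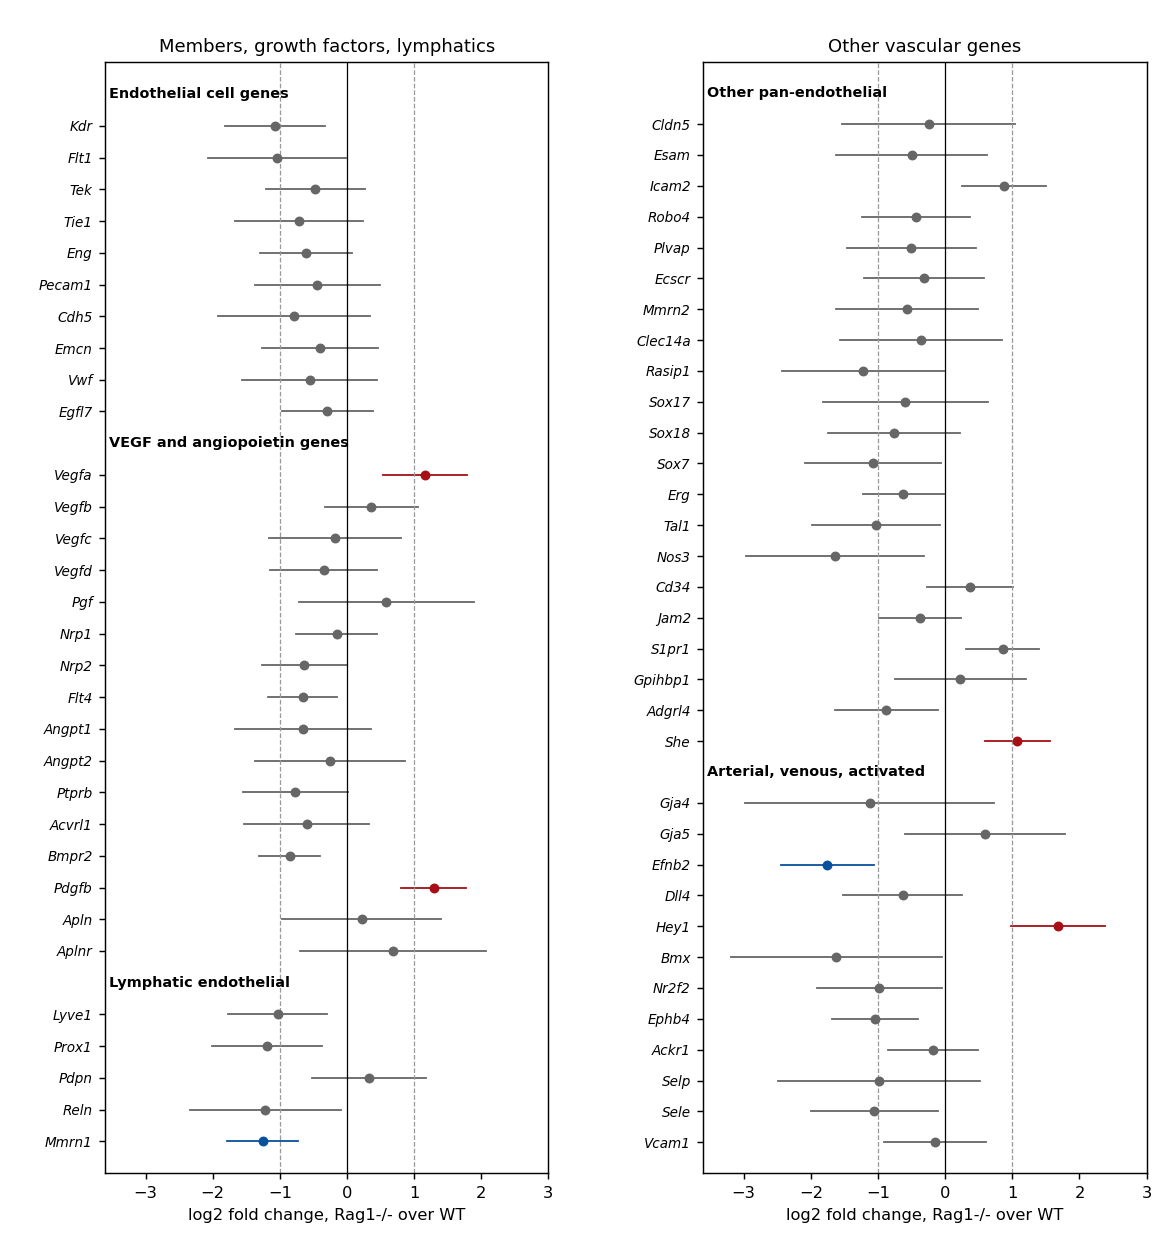
Log2 fold change of *Rag1*-/- over WT (points) with 95% intervals (lines) from edgeR for the 10 endothelial cell genes and 54 other vascular genes tested, by list. Red marks genes called higher, blue genes called lower and grey genes not called, and dashed lines mark the limit of 1 on the fold. The 10 members lie between -1.07 and -0.29 in grey, and the 6 called genes belong to the other lists.

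Of 21 other genes of endothelial cells at large, 1 was called higher and none lower with edgeR, DESeq2 called 1 lower (*Nos3*, log2 fold change -1.70, adjusted p = 0.0147, named after its values were seen), and 16 of 21 had a log2 fold change below 0, with a median of -0.50. *Cldn5*, the tight junction protein of endothelium, had 23.8, 13.2 and 21.9 CPM in WT and 6.21 and 24.9 CPM in *Rag1*-/- pools 2 and 7, so that pool 7 was the highest library and pool 2 the lowest. *Esam*, a junction adhesion molecule, had a log2 fold change of -0.50 (adjusted p = 0.568, edgeR). *She*, which encodes an adaptor protein with an SH2 domain, rose by 1.07 ± 0.20 log2 units (SE, adjusted p = 0.0357, edgeR), from 16.2, 12.8 and 15.1 CPM in WT to 32.8 and 27.9 CPM in *Rag1*-/-. This call was lost without the filter on low counts.

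Of 12 genes of arterial, venous and activated endothelium, 1 was called higher and 1 lower with edgeR, 1 higher and 3 lower with DESeq2, and the median was -0.98. *Efnb2*, the arterial ligand ephrin-B2 that keratinocytes also make, fell by 1.75 on the log2 scale (SE 0.29, adjusted p = 0.0307, edgeR), with 114, 123 and 151 CPM in WT pools 5, 6 and 13 and 27.7 and 46.5 CPM in *Rag1*-/- pools 2 and 7. *Hey1*, a Notch target gene of arteries and other tissues, rose by 1.68 (SE 0.30, adjusted p = 0.0322, edgeR), from 12.9, 24.3 and 23.8 CPM to 68.4 and 59.5 CPM. The arterial connexin genes *Gja4* and *Gja5* had log2 fold changes of -1.13 and 0.60 without a call (adjusted p = 0.417 and 0.509). In contrast to the 10 members, WT pool 5 was the lowest WT library for *Efnb2* and *Hey1*.

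Of the 6 lymphatic endothelial genes 5 were tested, and 1 was called lower and none higher with edgeR, where DESeq2 called 4 lower, with a median of -1.19. Of all genes tested 2.16% were called lower with edgeR, and of those given an adjusted p-value 7.65% with DESeq2. *Mmrn1*, a multimerin of lymphatic endothelium, fell by 1.25 on the log2 scale (SE 0.22, adjusted p = 0.0325, edgeR), with 62.2, 52.8 and 75.0 CPM in WT and 24.1 and 27.5 CPM in *Rag1*-/- pools 2 and 7. *Lyve1*, a hyaluronan receptor of lymphatic vessels and of macrophages, had 35.6, 32.3 and 47.6 CPM in WT and 13.2 and 22.9 CPM in *Rag1*-/- (log2 fold change -1.03, adjusted p = 0.0932), and *Prox1*, the transcription factor of lymphatic identity, had 10.2, 7.45 and 14.1 CPM in WT and 4.72 and 4.37 CPM in *Rag1*-/- (-1.19, adjusted p = 0.0878, edgeR for both). DESeq2 called both lower (adjusted p = 0.0198 and 0.0122). *Prox1* shares 1.59% of its exon bases with an overlapping gene. In 4 of the 5 lymphatic genes tested both *Rag1*-/- pools were below every WT pool, against 3 of the 10 members and 24.0% of all genes tested. *Pdpn*, named after its values were seen, went the other way with a log2 fold change of 0.33 (adjusted p = 0.621, edgeR). It had 3.09, 2.43 and 3.92 CPM in WT pools 5, 6 and 13 and 4.10 and 3.65 CPM in *Rag1*-/- pools 2 and 7. *Ccl21a* had 0 counts in every library and was not tested. WT pool 13, and not pool 5, was the highest library for *Mmrn1*, *Lyve1* and *Prox1*. Whether the lymphatic genes differed more than the 10 members was not tested.

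Over the 4 vascular lists, 54 of 55 genes were tested, 2 were called lower and 4 higher with edgeR (8 and 4 with DESeq2), and 40 had a log2 fold change below 0, with a median of -0.54. Without pool 2, or without any 1 of the WT pools, no gene of the whole table was called with edgeR and 3521 to 5200 genes had an unadjusted p-value under 0.05, so that the 6 calls were lost as well. Scaled on the leukocyte genes, *Efnb2* and *Mmrn1* stayed lower, and *Vegfa* (-0.93), *Pdgfb* (-0.85), *She* (-1.13) and *Hey1* (-0.31) had negative log2 fold changes and were not called. That scaling lowered the median of all genes to -2.13, and all 4 lay above it. With it, 68.1% of all genes tested were called lower, so that staying lower sets *Efnb2* and *Mmrn1* little apart.

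Genes of other cell types of the skin were read beside the members. In this paragraph calls are those of edgeR unless DESeq2 is named. Of 11 pericyte and smooth muscle genes none was called and DESeq2 called 2 lower, *Notch3* and *Abcc9*, with a median of -0.40 and a range from -1.40 (*Notch3*) to 0.48 (*Des*). Their summed level was 690, 381 and 511 CPM in WT pools 5, 6 and 13 and 261 and 436 CPM in *Rag1*-/- pools 2 and 7, the same order of pools as for the members. *Pdgfrb*, the receptor for the product of *Pdgfb*, and *Rgs5*, a pericyte marker, had log2 fold changes of -0.08 and -0.78 (adjusted p = 0.873 and 0.362, edgeR). Of 10 fibroblast genes none was called, with a median of -0.09, and their summed level was highest in WT pool 13 (13952 CPM) and lowest in WT pool 6 (7829 CPM). Of 12 keratinocyte genes 4 were called lower (9 with DESeq2), with a median of -1.58. *Krt5* and *Krt14* had -1.26 and -1.15 without a call (adjusted p = 0.0666 and 0.084, edgeR), whereas DESeq2 called both lower (adjusted p = 0.000811 and 0.00281). Of 20 pan-leukocyte genes 15 were called higher (19 with DESeq2), with a median of 1.99. Of 10 ILC2 genes 3 were called higher (7 with DESeq2), with a median of 1.95. Of 8 platelet genes 6 were tested and none was called, and *Pf4* had 2.48 to 20.04 CPM and *Ppbp* at most 0.25 CPM in any library. Of 10 myeloid and 6 mast cell genes none was called, with medians of -0.04 and -0.36. DESeq2 called *Kit* of the mast cell list higher, whereas the other 5 genes of that list had log2 fold changes below 0. Of 8 T cell genes 7 were tested and 3 were called higher (*Cd3g*, *Trac* and *Lck*), and DESeq2 called *Trbc1* higher as well. *Cd3e*, *Cd3d* and *Cd4* had 0.32, 0.38 and 0.75 without a call (adjusted p = 0.553, 0.655 and 0.27, edgeR). The part of the keratinocyte, leukocyte and stromal levels in the values of the members was not tested.

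**Figure D3:**
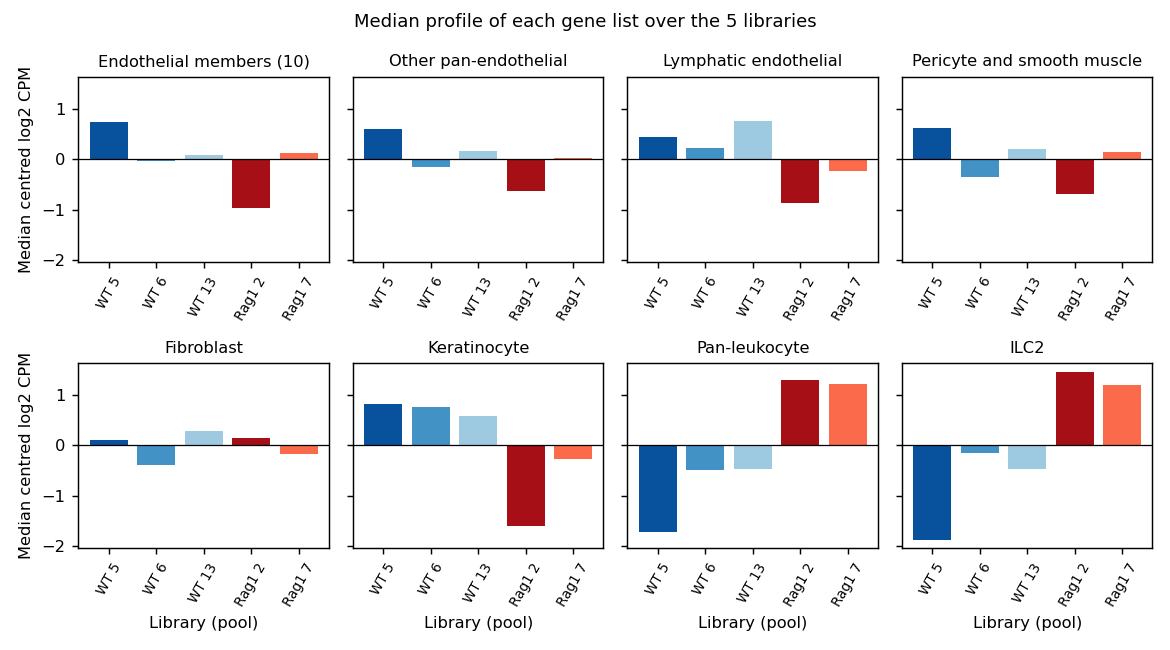
Median over the genes of each list of centred log2 CPM (bars, 1 per library), with blue for WT pools 5, 6 and 13 and red for *Rag1*-/- pools 2 and 7. The members are at 0.74 in WT pool 5, -0.97 in *Rag1*-/- pool 2 and 0.11 in pool 7. Nearest to the members in these medians is the arterial, venous and activated list (0.66, -0.94 and -0.02), which has no panel here. The leukocyte and ILC2 lists have their lowest bar in WT pool 5.

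The members were set against the pericyte and smooth muscle, fibroblast, keratinocyte, pan-leukocyte and lymphatic endothelial lists within each library. Ratios to the remaining lists, the arterial, venous and activated list among them, were not taken. Among the lists used, the members kept the most even proportion to pericyte and smooth muscle genes. The ratio of summed CPM was 1.15, 1.21 and 0.974 in WT pools 5, 6 and 13 and 0.912 and 1.10 in *Rag1*-/- pools 2 and 7, a span of 1.33 times. Against the fibroblast genes the ratio was 0.0793, 0.0591 and 0.0357 in WT and 0.0275 and 0.0569 in *Rag1*-/-, and the groups overlapped in both cases. Against the keratinocyte genes the ratio was higher in both *Rag1*-/- pools (0.0404 and 0.0321) than in every WT pool (0.0164 to 0.0217). Against the pan-leukocyte genes it was lower in both *Rag1*-/- pools (0.0349 and 0.0815) than in every WT pool (0.223 to 0.888), a span of 25.4 times. The keratinocyte and leukocyte sums themselves differed between the groups, and any gene at an even level would give ratios of these directions. When the libraries were scaled on the pan-leukocyte genes, all 10 members were called lower with edgeR, as were 68.1% of all genes tested, with a median log2 fold change of -2.88, a scaling under which the median of all genes was -2.13. The members' median minus that of all genes was -0.754 there, and -0.602 in the scaling used throughout.

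**Figure D4:**
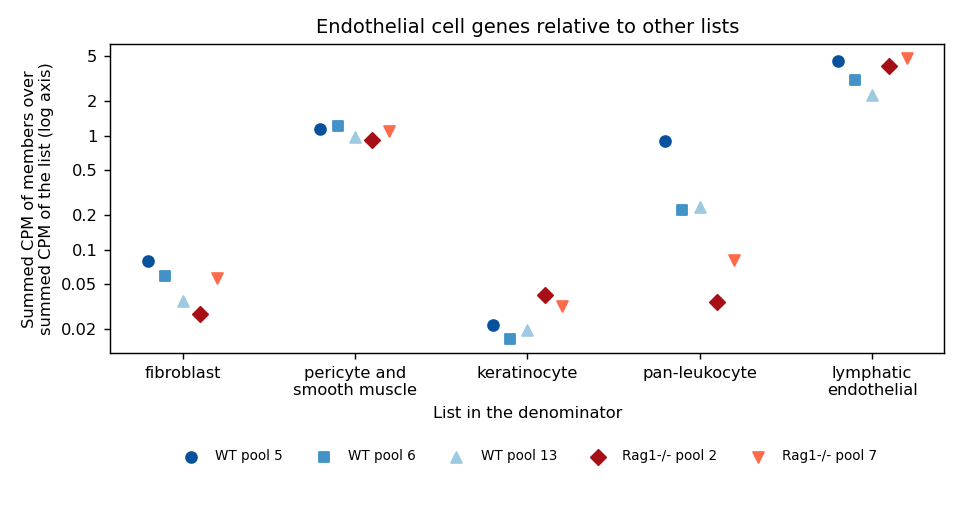
Summed CPM of the 10 endothelial cell genes divided by the summed CPM of another list in the same library (log axis), with 1 point per library, blue for WT and red for *Rag1*-/- pools. The ratio to pericyte and smooth muscle genes stays between 0.912 and 1.21, whereas the ratio to pan-leukocyte genes runs from 0.0349 to 0.888. Ratios to different lists are not comparable with each other, since genes differ in length.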

How the data were processed

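RNA of sorted dILC2s was sequenced by the authors in 5 libraries from polyadenylated RNA (TruSeq RNA Sample Prep Kit v2). Per the labels and the methods of the study, reads were aligned to GRCm38 with STAR 2.5 and counted per gene with featureCounts 1.5.0-p1, and raw counts were deposited by the authors without normalization. The deposited labels and the methods name different releases of the annotation. A normalized signal per symbol was also deposited by the authors and was used in an alternative only. The gene lists and members were chosen with earlier results of these data known.

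From the counts, low genes were removed with filterByExpr, libraries were scaled with TMM, and the contrast of genotypes was fitted in R 4.3.3 with edgeR 4.0.16 (quasi-likelihood test, Benjamini-Hochberg adjustment over all 19011 genes tested). A gene was called at an adjusted p-value below 0.05 with a change of more than 1 in log2 units. CPM were computed on the total counts on genes, and the floor of 3 counts covers counting error only, whereas the 95% intervals of fold changes include the spread between pools. Centred log2 CPM used a prior count of 2. Of 160 list entries, 156 were matched by symbol and 4 by gene ID through GENCODE M21. Named genes were the members, and in each other list the first 2 and up to 3 called genes in each direction, or the extremes of the fold where none was called. In long lists outside the vasculature only part of these is named. The test was checked on simulated counts with the same spread for all genes. That check does not cover pools that differ in make-up. Alternatives were DESeq2 1.42.0, limma 3.58.1 on log2 of the deposited signal with a pseudocount of 1, other scalings, filters and thresholds, a robust fit, thinning to the shallowest library and leaving out each library. Pools of a genotype are independent sets of mice per the methods, and their sort dates are not given in the sources used here.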

Additional observations from a re-analysis of the deposited data

How the results depend on the processing

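The 10 members had 150 log2 fold changes over 15 alternative settings. Those of the robust fit and of the threshold on adjusted p alone repeat the edgeR fit used throughout, so that they add no separate values. Of the 150 values, 148 were below 0. The exceptions, without *Rag1*-/- pool 2, were *Pecam1* (0.049) and *Emcn* (0.0039), which ran from -1.26 to 0.049 and from -1.08 to 0.0039 with a library left out. No member was called in 11 of the 15 settings. The number of members called lower was 1 with DESeq2, 2 without the filter on low counts and 10 with scaling on the pan-leukocyte genes, and it ran from 0 to 2 with a library left out. No member was called higher in any setting. The median log2 fold change of the members was -2.88 with scaling on the pan-leukocyte genes and ran from -1.36 to -0.21 with a library left out. The ratio of the summed CPM was 0.130 against the pan-leukocyte genes and ran from 0.407 to 0.820 with a library left out. Of the other vascular genes, 8 were called lower with DESeq2, 10 without the filter, 43 with scaling on the pan-leukocyte genes and 0 with limma on the deposited signal, and 0 were called higher with that scaling and with limma. With limma, 4638 genes of the whole table had an unadjusted p-value under 0.05 and none passed after adjustment. With a library left out, the numbers ran from 0 to 11 lower and from 0 to 4 higher. The numbers called over all genes, 411 lower and 679 higher with edgeR, were 1256 and 1197 with DESeq2, 12955 and 16 with scaling on the pan-leukocyte genes and 1488 and 1157 without the filter. The cause of these shifts was not tested, apart from the scaling, which lowers all genes by its construction. Thinning every library to the shallowest one called no member. No paired analysis was possible because the genotypes share no replicate numbers.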

Other observations

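The selectin genes of activated endothelium were more abundant per length than any of the 10 endothelial cell genes, a comparison chosen after the values were seen. *Selp*, which encodes P-selectin of endothelium and platelets, had 106, 83.8 and 82.7 CPM per kb of exon in WT pools 5, 6 and 13, and 13.2 and 75.0 CPM per kb in *Rag1*-/- pools 2 and 7. *Sele*, which encodes E-selectin, had 89.4, 59.0 and 69.8 CPM per kb in WT and 19.7 and 47.7 CPM per kb in *Rag1*-/-. The highest member in the same libraries was *Eng* or *Pecam1*, at 27.5, 16.7 and 17.1 CPM per kb in WT and 11.1 and 18.4 CPM per kb in *Rag1*-/-, so that both selectin genes lay above every member in all 5 libraries. Both were lowest in *Rag1*-/- pool 2, and neither was called between genotypes with edgeR's quasi-likelihood test (log2 fold changes -0.98 and -1.06, adjusted p = 0.38 and 0.152), whereas DESeq2 called *Sele* lower (-1.10, adjusted p = 0.0481). Of the exon bases of *Selp*, 14.1% are shared with other annotated genes. The pan-endothelial gene *Plvap* also lay above every member in all 5 libraries. It had 80.7, 37.5 and 35.6 CPM per kb in WT pools 5, 6 and 13, and 28.0 and 42.1 CPM per kb in *Rag1*-/- pools 2 and 7. In pool 2 it was above both selectin genes.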
